A study of Mus musculus with 11 samples.

Results

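The genes examined here are 10 nuclear genes whose products maintain or transcribe mitochondrial DNA, chosen by name: Tfam, Tfb2m, Polrmt, Tfb1m, Lrpprc, Twnk, Polg, Polg2, Ssbp1 and Nrf1. They are 10 of the 55487 gene identifiers of the deposited table, and all 10 were among the 23779 genes that passed the filter on low counts. RNA was sequenced from hearts of female C57BL/6NTac mice, an inbred strain, which entered the study at 8 weeks of age and were fed for 24 weeks. The treated obese group (3 libraries) had an obesogenic diet, made of a chow with 60.3% of its energy from fat plus sweetened condensed milk, and from week 16 was gavaged on 3 days in a row each week with 5 mg/kg of dasatinib, which blocks tyrosine kinases, together with 50 mg/kg of quercetin, a flavonoid, in 10% PEG400. The pair is used as a senolytic, a treatment aimed at senescent cells. The obese group (4 libraries) had the same diet and the PEG400 vehicle by gavage. The control diet group (4 libraries) had a chow with 10.4% of its energy from fat, and the sources used here do not say whether it was gavaged. Effects of the diet and of the gavage therefore cannot be told apart where obese mice are set against control diet mice.

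Mitochondria keep a small circular genome of their own that encodes core subunits of the respiratory chain, and every protein that copies or reads it is made from nuclear genes. Tfam packs this DNA and bends its promoters, Tfb2m opens them, and Polrmt, a single-subunit RNA polymerase, makes the long transcripts and the primers of replication. Polg with its accessory subunit Polg2, the helicase Twnk and the single-strand binding protein Ssbp1 copy the DNA, Tfb1m methylates mitochondrial ribosomal RNA, Lrpprc holds mitochondrial messenger RNAs stable, and Nrf1 is a nuclear transcription factor for many genes of mitochondrial proteins. The heart is among the tissues richest in mitochondria.

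Promoter windows of all 10 genes were read from RefSeq (GRCm38.p6), each with 250 bases before and 50 after an annotated start and 300 bases long, 12 windows in all since Twnk and Nrf1 have more than 1 start. They were searched on both strands for the letters GCGCATGC, a core of the binding motif of NRF1, and CCGGAAG, a core of the motif of ETS factors, the family of Gabpa; no match of one overlapped a match of the other in these windows. The windows of the 3 genes whose RNA was lower in every obese library than in every control diet library (Tfam, Tfb2m and Lrpprc), and of Polrmt and Tfb1m, where it was not, are shown so that they can be compared. All 5 genes lie on the minus strand and are printed 5′ to 3′ on their own strand, with matches in capitals. The windows are chr10:71237995-71238294 for Tfam, chr1:179546227-179546526 for Tfb2m, chr17:84790737-84791036 for Lrpprc, chr10:79746532-79746831 for Polrmt and chr17:3557706-3558005 for Tfb1m.
Tfam: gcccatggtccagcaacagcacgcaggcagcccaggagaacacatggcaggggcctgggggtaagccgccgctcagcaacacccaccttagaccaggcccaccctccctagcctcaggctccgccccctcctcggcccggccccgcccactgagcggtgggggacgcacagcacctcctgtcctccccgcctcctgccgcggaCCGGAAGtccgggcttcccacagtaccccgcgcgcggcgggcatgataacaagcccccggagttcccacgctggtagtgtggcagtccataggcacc
Tfb2m: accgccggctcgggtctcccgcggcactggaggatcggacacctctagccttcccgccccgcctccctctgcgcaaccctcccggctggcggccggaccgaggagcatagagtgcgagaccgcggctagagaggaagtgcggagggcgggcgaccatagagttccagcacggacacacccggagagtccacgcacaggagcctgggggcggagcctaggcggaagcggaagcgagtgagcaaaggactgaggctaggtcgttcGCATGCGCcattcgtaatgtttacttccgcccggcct
Lrpprc: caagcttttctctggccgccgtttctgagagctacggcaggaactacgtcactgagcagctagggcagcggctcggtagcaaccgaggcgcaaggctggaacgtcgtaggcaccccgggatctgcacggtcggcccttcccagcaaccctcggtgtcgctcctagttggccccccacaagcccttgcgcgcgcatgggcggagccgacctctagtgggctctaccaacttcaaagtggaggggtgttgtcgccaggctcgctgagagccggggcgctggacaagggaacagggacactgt
Polrmt: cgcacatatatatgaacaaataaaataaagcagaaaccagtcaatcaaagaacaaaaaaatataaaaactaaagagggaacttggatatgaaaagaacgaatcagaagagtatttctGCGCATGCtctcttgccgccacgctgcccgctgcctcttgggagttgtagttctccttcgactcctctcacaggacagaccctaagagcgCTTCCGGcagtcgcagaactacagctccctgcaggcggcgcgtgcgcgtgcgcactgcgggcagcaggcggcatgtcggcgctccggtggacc
Tfb1m: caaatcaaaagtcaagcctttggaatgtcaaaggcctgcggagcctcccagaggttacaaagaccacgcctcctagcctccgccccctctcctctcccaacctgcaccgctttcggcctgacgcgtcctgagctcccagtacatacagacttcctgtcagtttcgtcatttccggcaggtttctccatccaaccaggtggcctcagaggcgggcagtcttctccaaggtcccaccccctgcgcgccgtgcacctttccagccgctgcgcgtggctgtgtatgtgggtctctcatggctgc
The NRF1 letters were found in 2 of the 10 genes, Polrmt, starting 133 bases before the start, and Tfb2m, on the opposite strand and after the start. They were found in 2.71% of the 32851 promoter windows of the whole table. Allowing any base at the sixth position (GCGCANGC) raised that share to 9.95% and added none of the 10 genes. The ETS letters stood in 6 of the 10 genes, Tfam, Polrmt, Twnk, Polg, Polg2 and Ssbp1, and in 8.86% of all windows. These shares are over windows and the counts over genes, where a match in any window of a gene sufficed. Twnk had its matches in 1 of its windows only, and no share over all genes was computed. Tfam had its match 47 bases before the start, Polrmt 43, Polg 38, Polg2 29 and Ssbp1 47. Among the 3 genes that were lower in every obese library, Tfam had the ETS letters, Tfb2m the NRF1 letters and Lrpprc neither, while Tfb1m and Nrf1 also had neither. No change of a base was allowed in the ETS letters, so near matches to them are not counted. These matches describe letters in these windows and not binding.

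Library totals ran from 64.2 to 72.3 M counts (M for mega) in treated, 52.7 to 67.2 M in obese and 73.1 to 103 M in control diet libraries, so every control diet library was deeper than every other library. Nothing in the labels ties each library to an animal of its own, and p-values therefore rest on the spread among these libraries, part of which may be technical. Markers of heart muscle were high throughout, with summed levels of 8 general and ventricular cardiomyocyte markers of 29411 to 35063 CPM in treated, 23625 to 35729 CPM in obese and 29807 to 42908 CPM in control diet libraries. CPM is used for counts scaled to the TMM-adjusted total of the library. Of these 8 markers, 4 fell in obese against control diet hearts, as did 2 of 5 endothelial, 1 of 5 lymphocyte and 1 of 4 smooth muscle and pericyte markers. All 4 adipocyte markers rose (summed 0.308 to 7.09 CPM in obese and 0.0991 to 0.258 CPM in control diet libraries), as did 1 of 5 fibroblast and 1 of 4 Schwann markers, and 0 of 5 macrophage, 0 of 4 erythroid and 0 of 6 atrial markers were called. The 6 atrial markers nevertheless summed to 43.8 to 5542 CPM in treated, 15.6 to 2044 CPM in obese and 30.8 to 95.5 CPM in control diet libraries. Counts of genes annotated as sense-intronic or as loci awaiting experimental evidence, called the intronic share here, took 0.603% ± 0.0837 of treated (SD, n = 3), 0.732% ± 0.0630 of obese (SD, n = 4) and 0.399% ± 0.139 of control diet counts (SD, n = 4). The obese libraries all lay above the control diet libraries in this share. A fit with this share as a covariate therefore cannot well separate it from the group. A call lost in that fit does not show which of the 2 bears on a gene. The mean log2 level of the 8 cardiomyocyte markers differed by -0.51 in obese against control diet hearts (exact permutation p = 0.0857, adjusted 0.305). In bulk heart RNA, fewer cells of a type and less RNA per cell cannot be told apart. Fits with the intronic share or the atrial marker level as a covariate are given below, and the part of the other markers in the results was not tested.

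Among the 3 proteins that start mitochondrial transcription, the RNAs of Tfam and Tfb2m fell in obese hearts and that of the polymerase itself did not pass the test. Tfam (ENSMUSG00000003923, chr10:71225464-71238280 in GRCm38) had 9.91, 11.03 and 9.59 CPM in treated obese hearts, 8.41, 8.05, 8.96 and 11.2 CPM in obese hearts, and 17.6, 14.1, 14.8 and 21.4 CPM in control diet hearts. All 7 libraries of obese mice, treated or not, lay below all 4 of the control diet. In obese against control diet hearts Tfam fell 1.85-fold, a log2 fold change of -0.89 with an SE of 0.15 (edgeR adjusted p = 0.00124). Tfb2m (ENSMUSG00000026492, chr1:179528055-179546267) had 26.6, 28.8 and 25.1 CPM in treated, 23.4, 19.3, 23.1 and 31.2 CPM in obese, and 52.6, 43.2, 47.3 and 55.1 CPM in control diet hearts. Its groups were as clearly apart, with the highest obese library under the lowest of the control diet. Tfb2m had the largest fall of the 10 genes, 2.04-fold (log2 fold change -1.03, SE 0.14, edgeR adjusted p = 0.000368), and 2.77% of all genes tested had a lower fold change. Polrmt (ENSMUSG00000020329, chr10:79736123-79746581) had 28.9, 24.8 and 22.8 CPM in treated, 27.2, 22.8, 18.6 and 26.9 CPM in obese, and 27.5, 23.4, 31.0 and 27.3 CPM in control diet hearts. The 3 groups overlapped, and the log2 fold change of obese against control diet was -0.19 with a 95% interval of -0.46 to 0.07 (edgeR adjusted p = 0.290). Adding the intronic share to the model as a covariate left Tfam at -0.34 (adjusted p = 0.556) and Tfb2m at -0.61 (adjusted p = 0.247), so neither call held there.

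**Figure D1:**
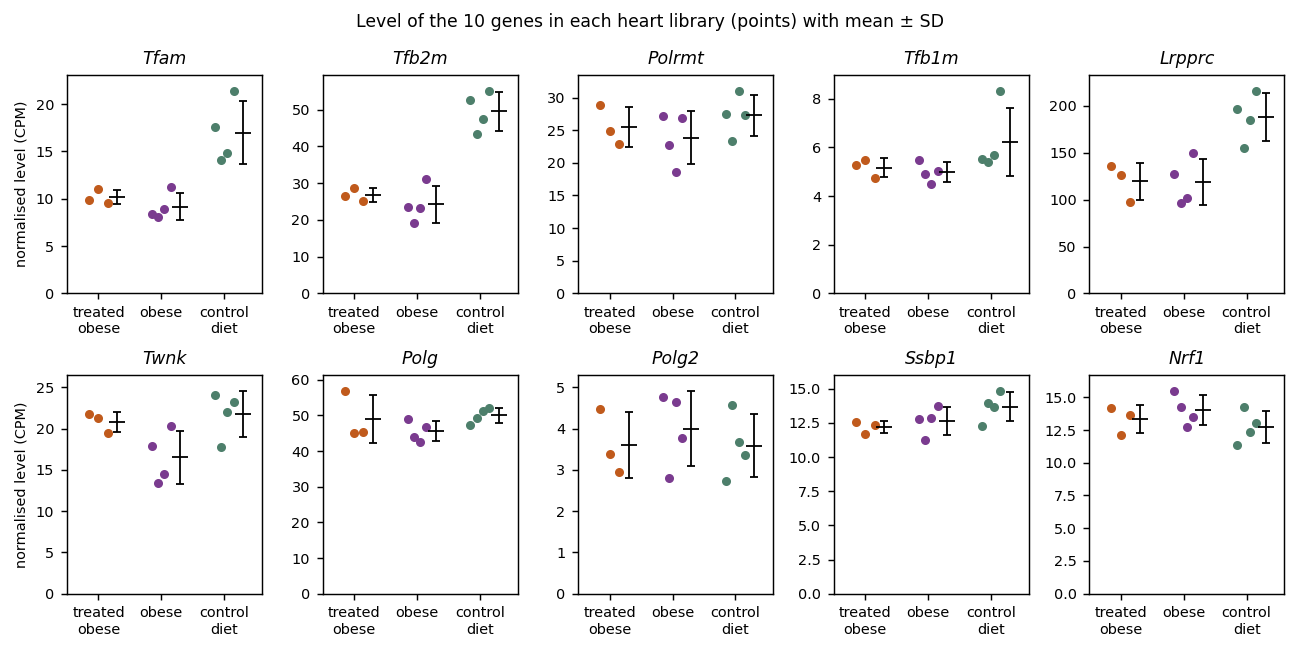
Level of each of the 10 genes in CPM (vertical axes, from 0) in treated obese, obese and control diet hearts; each point is 1 library, and the black bar with whiskers is the mean ± SD. The obese and treated points of Tfam, Tfb2m and Lrpprc all lie below the control diet points, while the groups overlap in the other 7 genes.

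Tfb1m and Tfb2m are related proteins that descend from ribosomal RNA methyltransferases, and the ratio of their RNAs was lower in every obese library than in every control diet library, a difference that did not pass after adjustment. Tfb1m (ENSMUSG00000036983, chr17:3519256-3557781), which modifies the small ribosomal RNA, had 5.26, 5.50 and 4.73 CPM in treated, 5.50, 4.89, 4.49 and 5.04 CPM in obese, and 5.53, 5.39, 5.68 and 8.33 CPM in control diet hearts. Obese and control diet libraries overlapped, control diet replicate 4 stood above the others, and the log2 fold change was -0.32 with a 95% interval of -0.63 to -0.02 (edgeR adjusted p = 0.133). Reads of Tfb2m outnumbered those of Tfb1m by 5.05, 5.23 and 5.31 to 1 in treated hearts, 4.26, 3.94, 5.15 and 6.20 to 1 in obese hearts, and 9.51, 8.02, 8.34 and 6.62 to 1 in control diet hearts. Every obese and treated ratio lay below every control diet ratio. The obese ratio was 0.597 of that of the control diet, with p = 0.0286 in a 2-sided exact permutation test, the smallest p that 4 against 4 libraries can give, and 0.229 after adjustment over the 24 tests of library measures. The log2 ratio of treated obese hearts differed by 0.11 from that of obese hearts (exact permutation p = 0.514, adjusted 0.561). As a ratio within a library it does not depend on scaling, and its size is a difference between counts of genes of unequal length. Set against Polrmt, which was looked at after its values were seen and is given without a test, Tfam had 0.343 to 0.445 reads for each of Polrmt in treated, 0.309 to 0.483 in obese and 0.477 to 0.784 in control diet hearts. For Tfb2m, reads for each of Polrmt were 0.920 to 1.16 in treated, 0.845 to 1.25 in obese and 1.52 to 2.02 in control diet hearts.

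**Figure D2:**
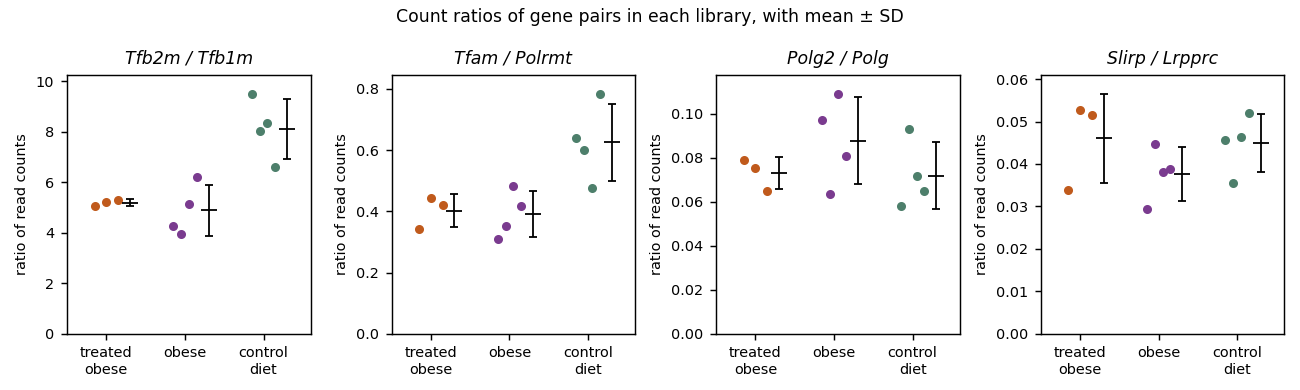
Ratio of read counts of 4 gene pairs (vertical axes, from 0) in treated obese, obese and control diet hearts; points are libraries and bars are the mean ± SD. The Tfb2m to Tfb1m ratio lies at 3.94 to 6.20 in obese and 6.62 to 9.51 in control diet libraries. The Tfam to Polrmt, Polg2 to Polg and Slirp to Lrpprc ratios overlap between obese and control diet libraries.

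Lrpprc, whose protein protects mitochondrial messenger RNAs, was the most abundant of the 10 and also fell. Lrpprc (ENSMUSG00000024120, chr17:84705247-84790789) had 136, 126 and 97.6 CPM in treated, 128, 96.9, 102 and 150 CPM in obese, and 196, 155, 185 and 216 CPM in control diet hearts. The groups did not overlap, but the highest obese library lay close to the lowest of the control diet. Lrpprc fell 1.58-fold in obese against control diet hearts, a log2 fold change of -0.66 with an SE of 0.16 (edgeR adjusted p = 0.00885). This call was lost when only library totals scaled the counts (log2 fold change -0.24, adjusted p = 0.0883) and with the intronic share as a covariate (-0.11, adjusted p = 0.890). Slirp, the partner of Lrpprc in its RNA-binding complex, was added after its values were seen. It had 4.599, 6.64 and 5.02 CPM in treated, 3.73, 4.32, 3.88 and 5.83 CPM in obese, and 8.97, 5.49, 8.57 and 11.3 CPM in control diet hearts. It fell 1.93-fold in obese against control diet hearts (edgeR adjusted p = 0.00652), although obese replicate 4 lay above control diet replicate 2. The log2 ratio of Slirp to Lrpprc reads differed by -0.25 in obese against control diet hearts (exact permutation p = 0.229, adjusted 0.366).

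Of the 4 genes of the replication machinery only the helicase Twnk was called, and narrowly. Twnk (ENSMUSG00000025209, chr19:45005663-45012762) had 21.8, 21.2 and 19.5 CPM in treated, 17.8, 13.4, 14.4 and 20.3 CPM in obese, and 24.1, 17.8, 22.0 and 23.2 CPM in control diet hearts. Obese libraries overlapped those of the control diet. The fall of 1.32-fold passed the threshold narrowly (log2 fold change -0.40, SE 0.14, edgeR adjusted p = 0.0454), and 17 of 25 alternative settings took it past 0.05. Among these were the fits without control diet replicate 1, 3 or 4, obese replicate 1, 2 or 3, or any treated replicate, with an adjusted p of up to 0.122. The call of Twnk was also lost with the atrial marker level as a covariate, where those of Tfam, Tfb2m and Lrpprc held. Polg, the catalytic subunit of the mitochondrial DNA polymerase (ENSMUSG00000039176, chr7:79446231-79466362), averaged 49.1 ± 6.72 CPM in treated (SD, n = 3), 45.6 ± 2.83 CPM in obese (SD, n = 4) and 50.0 ± 2.21 CPM in control diet hearts (SD, n = 4). Its log2 fold change of -0.13 in obese against control diet hearts had a 95% interval of -0.32 to 0.06. Polg2 (ENSMUSG00000020718, chr11:106768253-106779537) was the scarcest, with 178 to 327 reads per library, and averaged 3.60 ± 0.795 CPM in treated, 3.995 ± 0.912 CPM in obese and 3.59 ± 0.766 CPM in control diet hearts. Its interval was the widest of the 10, from -0.27 to 0.58. Ssbp1 (ENSMUSG00000029911, chr6:40471352-40484700), which coats single-stranded mitochondrial DNA, averaged 12.2 ± 0.451 CPM in treated, 12.7 ± 1.05 CPM in obese and 13.7 ± 1.05 CPM in control diet hearts, with an interval of -0.31 to 0.09. The log2 ratio of Polg2 to Polg reads differed by 0.28 in obese against control diet hearts (exact permutation p = 0.257, adjusted 0.386).

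Nrf1 (ENSMUSG00000058440, chr6:30047988-30153458), the one transcription factor of nuclear genes among the 10, had 14.2, 12.2 and 13.6 CPM in treated, 15.5, 14.2, 12.8 and 13.5 CPM in obese, and 11.3, 14.2, 12.3 and 13.1 CPM in control diet hearts. The groups overlapped widely. Its log2 fold change in obese against control diet hearts was 0.14, with a 95% interval of -0.08 to 0.35 (edgeR adjusted p = 0.358).

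In obese against control diet hearts 4 of the 10 genes were called, all lower (Tfam, Tfb2m, Lrpprc and Twnk), where 30.1% of all genes tested were called and 15.7% were called lower. In 3 of the 10 every obese library lay below every control diet library, against 14.7% of all genes, and in 0 of the 10 above, against 13.8%. The median log2 fold change was -0.26 over the 10 genes and 0.11 over all genes. The scaling of libraries bears on these directions. With library totals alone the median of all genes was 0.53, 90.4% of called genes were higher in place of 47.9%, and with upper-quartile scaling 59.9% were higher. Under library totals Tfb1m, Polrmt, Twnk, Polg and Ssbp1 turned to log2 fold changes of 0.11, 0.22, 0.02, 0.29 and 0.30, while Tfam stayed lower at -0.45 and Tfb2m at -0.61. Then 2 of the 10 were called lower, these 2, and 2 higher, Polg (adjusted p = 0.0401) and Nrf1 (log2 fold change 0.55, adjusted p = 0.00976). Relative to the median of all genes under each scaling, Tfam was lower by 0.98 with library totals and 0.996 with TMM scaling, and Tfb2m by 1.14 with either. A change of scaling moves all genes by about the same amount, so this distance hardly moves for any gene (Lrpprc -0.77 and -0.76 with TMM scaling and library totals). It is therefore no check on the choice of scaling. With the intronic share as a covariate 0 of the 10 genes and 121 of all genes passed. Obese and control diet libraries do not overlap in that share, so this fit cannot well separate it from the group. How far that share bears on the levels of the 10 genes cannot be told from it.

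**Figure D3:**
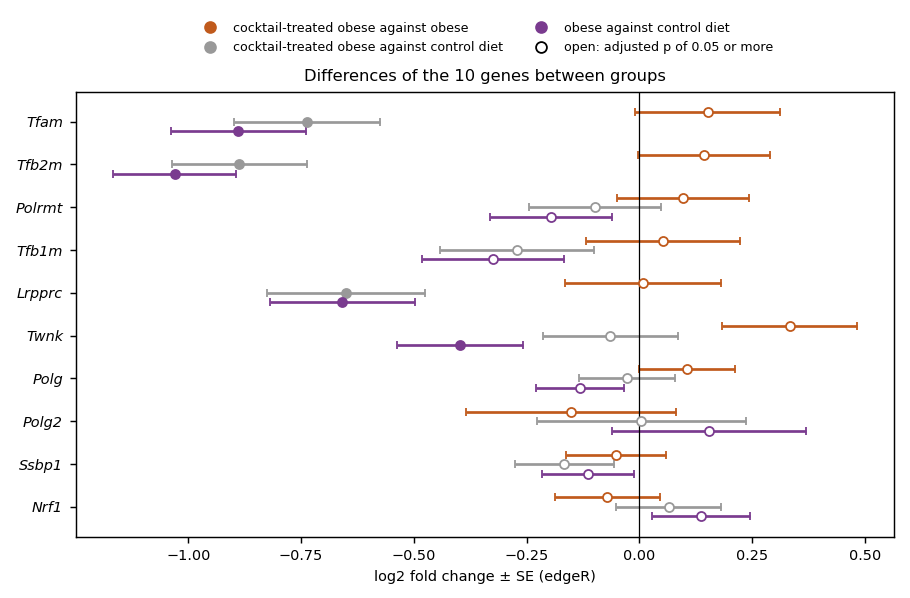
Log2 fold change ± SE (horizontal axis) of the 10 genes (rows) for treated obese against obese, treated obese against control diet, and obese against control diet hearts, from edgeR; open circles mark an adjusted p of 0.05 or more. Tfb2m, Tfam and Lrpprc lie between -1.03 and -0.65 in both comparisons with the control diet and near 0 for treated against untreated obese hearts.

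Between treated and untreated obese hearts, which differ in the cocktail, 0 of the 10 genes and 0% of all genes were called by edgeR. At an unadjusted p under 0.05 there was 1 of the 10 genes, against 10.2% of all genes tested. DESeq2 called 132 genes of all and limma voom 0, with 0 of the 10 in either. That 1 gene was Twnk, with a log2 fold change of 0.33 (SE 0.15, unadjusted p = 0.0432, adjusted p = 0.482). For Tfam the log2 fold change of treated against obese hearts was 0.15 with a 95% interval of -0.16 to 0.47. For Tfb2m it was 0.14 with an interval of -0.14 to 0.43. For Lrpprc it was 0.01 with an interval of -0.33 to 0.35. The 10 genes ranged from -0.15 for Polg2 to 0.33 for Twnk, and 0 of the 10 had groups that did not overlap, against 10.1% of all genes (4.68% higher and 5.45% lower).

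Treated obese against control diet hearts gave 3 lower genes of the 10, Tfb2m, Tfam and Lrpprc, where 15.8% of all genes were called, 7.43% higher and 8.39% lower. The same 3 of the 10 had an unadjusted p under 0.05, against 32.1% of all genes. This comparison shares its treated and control diet libraries with the others and is not independent of them. Tfb2m fell 1.85-fold, by 0.89 on the log2 scale with an SE of 0.15 (edgeR adjusted p = 0.00327), Tfam 1.67-fold (adjusted p = 0.0117) and Lrpprc 1.57-fold (adjusted p = 0.0272). The other 7 genes had an adjusted p of 0.290 or more, and Twnk was at -0.06 (95% interval -0.36 to 0.23). Without treated replicate 3, Tfam reached an adjusted p of 0.0633 and Lrpprc 0.132, which left 1 of the 10 called. Lrpprc was also lost without control diet replicate 1 (0.0637), control diet replicate 4 (0.0735) or treated replicate 2 (0.0539). With the atrial marker level as a covariate the call of Lrpprc was lost too, while those of Tfb2m and Tfam held. Leaving out obese replicate 3 and treated replicates 2 and 3, the libraries with the highest atrial marker levels, left 1 treated library. Calls of that fit are therefore not counted for this comparison. With library totals as the only scaling, 1 of the 10 was called lower here and 3 higher.

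Around the 10 genes, 6 lists with 88 other nuclear genes of mitochondrial DNA and RNA upkeep were counted. Of the 88, 30 fell and 3 rose in obese against control diet hearts, or 37.5% called, with a median log2 fold change of -0.24. Among all genes tested 30.1% were called, 15.7% lower and 14.4% higher, with a median of 0.11. With library totals as the only scaling 7 fell and 26 rose, with a median of 0.20 against 0.53 for all genes, and with the intronic share as a covariate 0 were called. In treated against obese hearts 0 of 88 were called, and in treated against control diet hearts 18 fell and 1 rose, or 21.6% called, against 15.8% of all genes (8.39% lower). That last count of 18 was 6 fallen without treated replicate 3, 8 without control diet replicate 4 and 10 without control diet replicate 1. It was 12 without treated replicate 2 and 28 without control diet replicate 2. Leaving out the 3 libraries with high atrial markers left 1 treated library, so no count is given for that fit. The genes with the smallest p of each list in treated against obese hearts had log2 fold changes of -0.51 (Dna2), 0.46 (Slc25a33), -0.25 (Mterf3), -0.20 (Mtpap), 0.36 (Pus1) and 0.68 (Myc), with adjusted p-values of 0.478 or more. In treated against control diet hearts, Hsd17b10 fell by 0.94, Tefm by 0.72 and Rrm2b by 0.55 on the log2 scale and Exog rose by 0.78 (edgeR adjusted p = 0.0144, 0.0168, 0.0178 and 0.0142).

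Processing, stability and decay of mitochondrial RNA was the list with most calls among the 6, 12 of 21 lower and 0 higher (median log2 fold change -0.43), or 57.1% called, against 30.1% of all genes. Hsd17b10, a subunit of mitochondrial RNase P, averaged 28.9 ± 7.68 CPM in obese and 66.7 ± 10.0 CPM in control diet hearts (SD, n = 4 each), 2.31-fold lower (edgeR adjusted p = 0.00117). The other RNase P subunits, Trmt10c and Prorp, and Elac2, the nuclease that cuts the other end of transfer RNAs, were looked at after their values were seen, and fell by 0.77, 0.68 and 0.48 on the log2 scale (adjusted p = 0.00442, 0.00491 and 0.00993). Trnt1, which adds the CCA end, fell 1.70-fold (adjusted p = 0.000465). Grsf1, a protein of mitochondrial RNA granules, and Fastkd1, of the FAST kinase family of mitochondrial RNA regulators, each fell 1.60-fold. Modification of mitochondrial RNA had 4 of 16 lower and 1 higher, a share near that of all genes called (30.1%). Nsun2 and Nsun3, cytosine methyltransferases of transfer RNAs, fell by 0.74 and 0.72 on the log2 scale. Pus1, a pseudouridine synthase, was 1.52-fold lower and Trmt5, a guanine methyltransferase of transfer RNAs, 1.45-fold lower, and Mettl17, named after its values were seen, was the higher gene (log2 fold change 0.31, adjusted p = 0.0493). Pus1 lost its call without control diet replicate 4 or obese replicate 1 (adjusted p of up to 0.0565), and Trmt5 without control diet replicate 1 or 4 or obese replicate 2 or 3 (up to 0.0920). Trmt5 also lost its call with the atrial marker level as a covariate. Mettl17 lost its call without any 1 library other than treated replicate 1 (up to 0.146). With library totals as the only scaling the calls of Trnt1, Grsf1, Fastkd1, Trmt10c, Prorp, Elac2, Nsun3, Pus1 and Trmt5 were lost, and with the intronic share as a covariate those of all the genes named here.

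Nucleotide supply to mitochondria had 5 of 12 genes lower and 0 higher, or 41.7% called, against 30.1% of all genes (15.7% lower). Sucla2 and Suclg1, subunits of succinyl-CoA ligase, fell 1.98-fold and 1.63-fold, and Rrm2b, the ribonucleotide reductase subunit of non-dividing cells, averaged 22.0 ± 3.58 CPM in obese and 36.9 ± 3.97 CPM in control diet hearts. Nme4, a mitochondrial nucleoside diphosphate kinase, was 1.69-fold lower, but not without control diet replicate 1 or 4 or obese replicate 1, 2 or 3 (adjusted p of up to 0.0792). Other factors of replication, repair and nucleoids had 3 of 16 lower and 1 higher, a share under that of all genes. Slc25a4, the ADP/ATP carrier of heart and muscle, was 1.94-fold lower (adjusted p = 0.00271), and Mpv17, an inner membrane protein whose loss depletes mitochondrial DNA, 1.43-fold lower. Lonp1, the matrix protease that degrades Tfam, was 1.34-fold lower, with its call lost without control diet replicate 1 or 4 or obese replicate 2 or 3 (adjusted p of up to 0.0660). The call of Lonp1 was also lost with the atrial marker level as a covariate. Exog, a mitochondrial nuclease of DNA repair, was higher, with 4.02 ± 0.8289 CPM in obese and 2.18 ± 0.168 CPM in control diet hearts (log2 fold change 0.89, adjusted p = 0.00247). Of 7 other transcription and termination factors only Tefm, the elongation factor, was called, with 4.59, 4.34, 4.92 and 5.35 CPM in obese and 9.84, 6.25, 8.94 and 10.7 CPM in control diet hearts (adjusted p = 0.00172), and the median of the 7 was 0.24. Rrm2b, Suclg1, Nme4, Mpv17 and Lonp1 lost their calls with library totals as the only scaling, and every gene named in these 3 lists lost its call with the intronic share as a covariate.

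**Figure D4:**
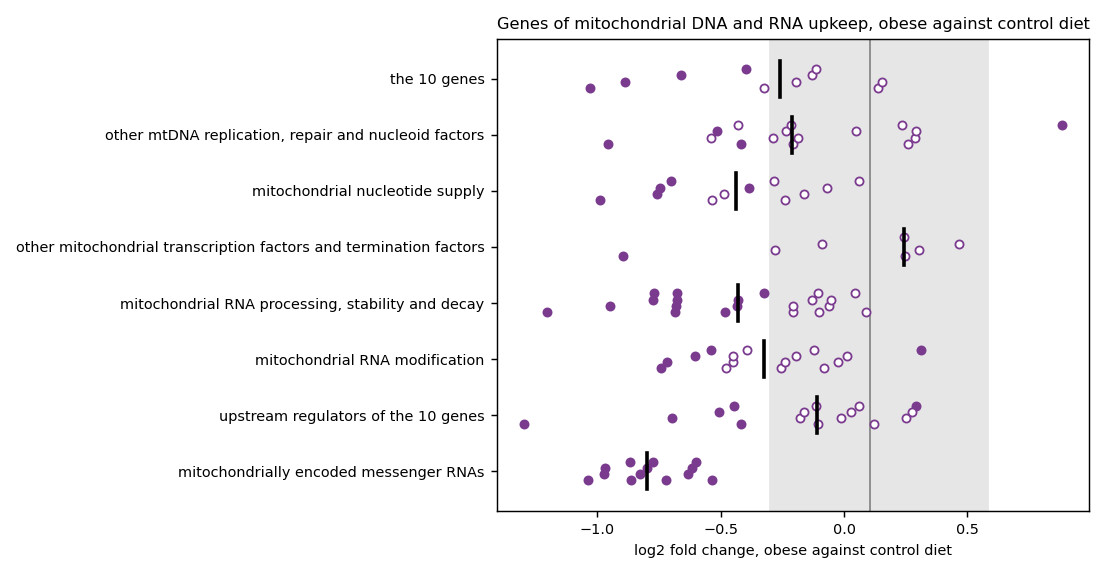
Log2 fold change of obese against control diet hearts (horizontal axis) for each gene (circle) of the 10 genes, 6 other nuclear lists and the 13 mitochondrial messenger RNAs (rows); filled circles have an edgeR adjusted p under 0.05, black bars are list medians, and the grey band and line are the quartiles and median of all genes. The 13 mitochondrial messenger RNAs are all filled and below 0, and the list medians run from -0.80 to 0.24.

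Known regulators of these genes had 5 of 16 lower and 1 higher in obese against control diet hearts, or 37.5% called, against 30.1% of all genes (15.7% lower). Gabpa, the ETS factor also called NRF-2, had 30.7, 30.4, 34.99 and 32.0 CPM in obese and 46.7, 44.8, 43.1 and 47.4 CPM in control diet hearts, without overlap (log2 fold change -0.51, SE 0.08, edgeR adjusted p = 0.00110). Its partner Gabpb2, named after its values were seen, was the higher gene (log2 fold change 0.29, adjusted p = 0.0267), a call lost without control diet replicate 1, 3 or 4 or obese replicate 1 or 3 (adjusted p of up to 0.0930). Yy1, a zinc finger factor, was 1.36-fold lower, Prkaa2, a catalytic subunit of AMP-activated kinase, 1.62-fold lower, and Myc, a growth-associated factor, 2.46-fold lower. Gabpa, Yy1 and Prkaa2 were not called with library totals as the only scaling (log2 fold changes of -0.081, -0.021 and -0.26), and these 3, Myc and Gabpb2 were not called with the intronic share as a covariate, where Gabpa stood at -0.50 (adjusted p = 0.167). Ppargc1a, the coactivator known for driving mitochondrial biogenesis, averaged 207 ± 11.6 CPM in treated (SD, n = 3), 201 ± 103 CPM in obese (SD, n = 4) and 169 ± 16.7 CPM in control diet hearts (SD, n = 4). Its obese libraries ranged from 88.7 to 328 CPM, and its log2 fold change of 0.25 had a 95% interval of -0.32 to 0.83. Esrra, a nuclear receptor that works with Ppargc1a, was at -0.11 (interval -0.35 to 0.13). In treated against obese hearts, Myc had the smallest p of this list, with a log2 fold change of 0.68 that missed the threshold (adjusted p = 0.478).

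The messenger RNAs made from mitochondrial DNA also fell in obese hearts. Genes of the mitochondrial chromosome took 22.4%, 20.5% and 17.8% of counts in treated, 23.1%, 22.9%, 21.4% and 24.5% in obese, and 30.6%, 28.2%, 28.5% and 32.3% in control diet libraries. Obese and control diet libraries did not overlap (difference -6.93 percentage points, exact permutation p = 0.0286, adjusted 0.229), and treated and obese libraries did (exact permutation p = 0.114, adjusted 0.305). All 13 mitochondrial messenger RNAs fell in obese against control diet hearts, with a median log2 fold change of -0.80 and a range of -1.04 for mt-Nd5 to -0.53 for mt-Atp6. The count was 11 with upper-quartile scaling, 9 with library totals, 9 with the atrial marker level as a covariate, 9 without the 3 libraries with high atrial markers, and 0 with the intronic share as a covariate. In treated against obese hearts 0 of 13 passed, and in treated against control diet hearts all 13 fell, or 6 without treated replicate 3. mt-Nd6, the messenger RNA made from the other strand than the remaining 12, took 2.31% ± 0.113 of the 13 in treated (SD, n = 3), 2.23% ± 0.0962 in obese (SD, n = 4) and 2.15% ± 0.164 in control diet hearts (SD, n = 4), which did not differ beyond the spread (obese against control diet, exact permutation p = 0.400, adjusted 0.505). Since the sources used here do not say whether counting used strand, counts of mt-Nd6 may hold reads of either strand. Of the 2 ribosomal RNAs, scarce in these libraries, 1 was called, higher. mt-Rnr1 had 260, 28.2 and 37.6 CPM in treated, 204, 749, 115 and 212 CPM in obese, and 36.4, 79.8, 43.5 and 38.4 CPM in control diet hearts. Every obese library lay above every control diet library (log2 fold change 2.69, SE 0.87, edgeR adjusted p = 0.0456), with obese replicate 2 far above the rest. Without obese replicate 2 the log2 fold change was 1.84, and leaving out control diet replicate 1, 2, 3 or 4 or obese replicate 1, 2 or 4 each ended the call (adjusted p of up to 0.119). mt-Rnr2 had a log2 fold change of 2.49 (SE 0.84), which did not pass (edgeR adjusted p = 0.0530). The sources used here do not say how ribosomal RNA was handled in library preparation. The amount of mitochondrial DNA was not measured, so RNA per genome copy cannot be given.

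**Figure D5:**
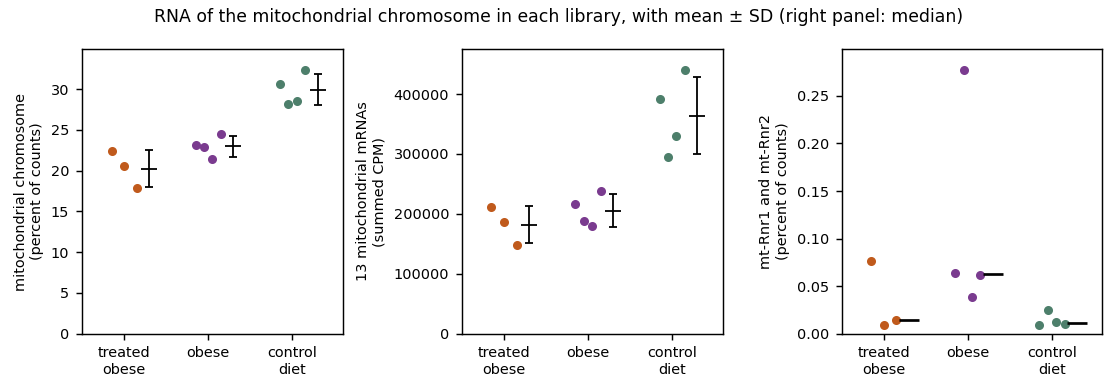
Counts of the mitochondrial chromosome as a percent of all counts, summed CPM of its 13 messenger RNAs, and its 2 ribosomal RNAs as a percent of counts (vertical axes, from 0) in treated obese, obese and control diet libraries (points), with mean ± SD, or the median in the ribosomal RNA panel. The control diet libraries lie above the rest in the first 2 panels and at 0.00962% to 0.0248% in the last, where obese replicate 2 stands at 0.277%.

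Per length, with CPM divided by the length of the gene in kilobases (RPKM), Lrpprc was the highest and Tfb2m the second highest of the 10 genes in every group, by the union of annotated exons and by the principal transcript alike. By the union, Lrpprc had 14.1 ± 2.33 RPKM in treated (SD, n = 3), 14.0 ± 2.87 RPKM in obese (SD, n = 4) and 22.1 ± 3.02 RPKM in control diet hearts (SD, n = 4). Tfb2m had 9.56 ± 0.654 RPKM in treated, 8.65 ± 1.79 RPKM in obese and 17.7 ± 1.90 RPKM in control diet hearts. Lower in the order the place depended on the transcript length, most of all for Nrf1, which was 9th by the union and 3rd or 4th by the principal transcript. Some of the genes overlap annotated genes on the opposite strand. Twnk overlaps Mrpl43, Tfb1m overlaps Tiam2 and Cldn20, Polg overlaps Fanci and Polg2 overlaps Milr1. Lrpprc overlaps AC165360.1, Nrf1 overlaps Gm25580 and Tfb2m overlaps the pseudogene Gm15480. Whether exons of these pairs overlap was not tested. The sources used here do not say whether counting used strand. Where exons of a pair do overlap, reads from the shared bases may therefore be of either gene. How many reads this concerns was not tested. Tfam, Polrmt and Ssbp1 overlap no annotated gene.

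Among the genes whose levels over the 11 libraries ran most like those of Tfb2m, by root mean square difference of centred log2 CPM, were Sub1 (0.08) and Bcap29 (0.09). For Tfam they were Eif2s1 (0.05), Ppp2ca (0.06) and Ppm1b (0.07), and for Lrpprc, Ndufa10 (0.05), Atp5h (0.05) and Sdha (0.06). These differences are over 11 libraries that share the group contrasts and the library depths, from 12694 genes searched, and describe levels only.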

How the data were processed

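The members and gene lists were chosen with earlier results of these data known. The authors deposited whole-number counts per Ensembl gene identifier, analysed here as read counts. Per the submitters' processing notes, cutadapt, HISAT2 and StringTie (versions not given) and the GRCm38 build were used; the sources used here do not state the counting settings or whether strand was used. GENCODE M21 named 55227 of 55487 identifiers; where 1 symbol had several (113 symbols), the identifier with the largest total was used.

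Genes were filtered with filterByExpr (minimum count 10, minimum total 15), leaving 23779, and TMM-scaled. The robust quasi-likelihood test of edgeR 4.0.16 (R 4.3.3), tested on simulated data, was run on a single fit of all 11 libraries with a mean per group, and p-values were Benjamini-Hochberg adjusted over all genes in each comparison (threshold 0.05). SE is the log2 fold change over the square root of F, and 95% intervals are normal ones from it. Levels are CPM (log2 CPM with a prior count of 1). Library measures, 8 in all, were compared by 2-sided exact permutation (24 tests, scipy 1.17.1). Named from each list were up to 4 called genes with the smallest p; where none passed, the 1 with the smallest p. Alternatives covered scaling, filters, DESeq2 1.42.0, limma 3.58.1 voom, a replicate block, covariates and libraries left out; counts over the lists under these were added after seeing the data. Motifs were searched in RefSeq promoter windows. Genes of like pattern are those with the smallest differences, and 1 of them is not reported here.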

Additional observations from a re-analysis of the deposited data

Results flagged for a closer look

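Tfb1m had 8.33 CPM in control diet replicate 4, against 5.39 to 5.68 CPM in the other 3 control diet libraries, so that 1 library stood apart from its group by 0.903 of the group's range. Of 36 sets of 4 libraries examined in this way this was the 1 that stood out, and chance gives about 1 in 20. Without that library the log2 fold change of Tfb1m in obese against control diet hearts was nearer to 0, at -0.16, the highest value over the fits that left out 1 library.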

How the results depend on the processing

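Tfam and Tfb2m kept their fall in obese against control diet hearts in 24 of 25 alternatives each, the exception being the intronic share as a covariate. In that comparison 36 called genes were followed through the alternatives: called members, genes taken by the naming rule and genes added after their values were seen. They include mt-Co1, mt-Co2 and mt-Atp8, not described above, and leave out mt-Atp6. All 36 lost their call with the intronic share as a covariate, 14 of them there alone. Of the 36, 19 lost it with library totals only and 8 without at least 1 library. The cause was not tested. Genes called in treated against obese hearts were 2 with upper-quartile scaling, 2 with no low-count filter, 2 with protein-coding genes only, 132 with DESeq2 and 5 without the 3 libraries with high atrial markers, where the lone treated library is assumed to vary like the others. In treated against control diet hearts they were 7300 with library totals only, 510 with the intronic share as covariate and 378 without the 3 libraries, and members called were 0 with that covariate and 0 without the 3 libraries. In obese against control diet hearts the covariate gave 121 genes and 0 of the 10.

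With library totals only, obese against control diet log2 fold changes turned to 0.11 (Tfb1m), 0.22 (Polrmt), 0.022 (Twnk), 0.29 (Polg, adjusted p = 0.0401) and 0.30 (Ssbp1), and Nrf1 passed at 0.55 (adjusted p = 0.00976). With the intronic share as a covariate they turned to 0.10 (Tfb1m), 0.11 (Polrmt), 0.064 (Twnk), -0.43 (Polg2), -0.071 (Nrf1), 0.12 (Slirp) and 0.26 (Trmt5). In treated against obese hearts that covariate gave -0.057 (Tfam), -0.11 (Tfb1m), -0.016 (Tfb2m), -0.018 (Polrmt), 0.094 (Polg2), 0.0077 (Nrf1) and -0.20 (Lrpprc). There Lrpprc also turned to -0.031 with upper-quartile scaling, -0.0056 with a minimum of 1 CPM in 3 libraries and -0.032 with protein-coding genes only, and without the 3 libraries Polg2 turned to 0.26 and Ssbp1 to 0.010. Twnk in treated against control diet hearts turned to 0.0021 with upper-quartile scaling, 0.37 with library totals only, 8.2e-05 with protein-coding genes only, 0.015 with the replicate block, 0.23 with the intronic share, 0.026 with the atrial marker score and 0.00997 without the 3 libraries.

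Without 1 library at a time, genes called ranged from 4917 to 8153 in obese against control diet, 0 to 24 in treated against obese (24 without obese replicate 3) and 1011 to 4652 in treated against control diet hearts (1011 without treated replicate 3), and members called from 3 to 4, 0 to 0 and 1 to 3. For treated against obese hearts log2 fold changes ranged from -0.090 to 0.14 for Lrpprc, -0.012 to 0.16 for Polg and -0.0057 to 0.17 for Polrmt. Obese against control diet differences ranged from -7.51 to -6.14 percentage points for the mitochondrial share, -0.865 to -0.647 for the log2 Tfb2m to Tfb1m ratio and 0.295 to 0.396 points for the intronic share; with 3 against 4 libraries the smallest exact p is 0.0571. Treated against control diet log2 ratios ranged from -0.0543 to 0.173 for Polg2 to Polg and -0.0923 to 0.227 for Slirp to Lrpprc.

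With the replicate number as a block, 7112 genes and 4 of the 10 were called in obese against control diet, 0 and 0 in treated against obese, and 2690 and 3 in treated against control diet hearts. Deviations of same-numbered libraries correlated at -0.232 to 0.399, and at 0.399, 0.0694 and 0.336 between treated and obese replicates 1, 2 and 3; not every pair was over 0.1, so a pairing by number was not established. A change that did not pass at this number of libraries is not shown to be absent.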
